A study of Rattus norvegicus with 12 samples.

Results

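The adaptor and kinase relay below the Toll-like and interleukin-1 receptors was followed in colon and hippocampus RNA of rats. The 10 genes were taken by symbol: the adaptors Myd88, Tirap and Ticam1, the kinases Irak1, Irak2, Irak3 and Irak4, the ubiquitin ligase Traf6, and the kinase Map3k7 with its partner Tab1. Of these, 9 had a row in both tables, among 14803 genes listed for the colon and 14266 for the hippocampus. Ticam1 has no row under that symbol and is not analysed here. The groups were rats labelled as having hypoxic-ischemic brain damage (called HI here) and sham controls, with 3 libraries of each from the colon and 3 of each from the hippocampus. The title of the series calls the rats neonatal; the labels used here state no strain, age, sex or injury protocol. They do not say whether the libraries of a group are different rats, so the p-values reflect the variation among these libraries only, technical variation included. The title also names lipopolysaccharide from gut bacteria and signalling from TLR4 through MyD88 to NF-κB, so the question here is how the RNA of that relay compared between HI and sham in each tissue.

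In this relay a receptor that has bound its ligand gathers MyD88, in some cases through the bridging adaptor TIRAP, and MyD88 assembles a complex with the kinase IRAK4. IRAK4 activates IRAK1 and IRAK2, which engage TRAF6. TRAF6 builds ubiquitin chains that recruit the kinase TAK1 (the product of Map3k7) through its binding proteins, and TAK1 switches on the IκB kinases and the MAP kinases. IRAK3, also called IRAK-M, is known from mouse and human macrophages as a brake on this complex. Much of the regulation is by binding and phosphorylation of proteins, which RNA levels do not report.

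Levels are in FPKM, which divides fragments by transcript length and by the total of the library, so different genes can be compared within a tissue. Sequencing depth is unknown; the FPKM totals per library ranged from 452291 to 509775. Some libraries stood apart from their group. Hippocampus HI 1 carried choroid plexus RNA: Ttr, a transthyretin gene and marker of that tissue, was at 4177 FPKM there and at most at 18.2 FPKM in the other 5 hippocampus libraries. The 2 Y chromosome genes with a row, Eif2s3y and Kdm5d, were at least at 8.18 FPKM in hippocampus HI 1 and at most at 0.0584 FPKM in the other 5, whereas in the colon sham 1 alone lacked them (at most 0.202 FPKM, against at least 10.6 FPKM). These genes were thus present in 5 of 6 colon libraries and in 1 of 6 hippocampus libraries, so tissue and Y status differ together in the levels compared below, and the labels do not settle whether rats of both sexes were used or samples were exchanged. Among colon libraries the Hox genes, which mark place along the gut, differed as described below. The colon header gives 2 sham columns the same name, and these are called sham 3a and sham 3b. Tissue markers followed the labels: Epcam, of epithelium, stood between 819 and 855 FPKM in the colon and at 3.17 FPKM or less in the hippocampus, and the neuronal gene Rbfox3 between 86.4 and 102 FPKM in the hippocampus and at most 2.29 FPKM in the colon.

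Irak1 was the most abundant of the 9 genes in either tissue. In the colon it stood at 34.4, 34.9 and 31.0 FPKM in HI 1, 2 and 3, against 33.0, 35.8 and 31.5 FPKM in sham 1, 3a and 3b. In the hippocampus it stood at 45.4, 44.2 and 44.4 FPKM in HI 1, 2 and 3, against 45.9, 44.6 and 43.4 FPKM in sham 1, 2 and 3. HI and sham libraries thus covered the same range in both tissues. The gene lies on the X chromosome (156716604 to 156725977, + strand, in the deposited coordinates, for which no genome build is stated). RefSeq places it on the - strand in the assembly GRCr8, and the gene is taken here by its symbol. Its level did not set hippocampus HI 1 or colon sham 1, the libraries that differed in Y chromosome genes, apart from the others.

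Below Irak1 the order of the genes differed between the tissues. In the colon Irak1 was followed by Myd88 (mean of 6 libraries 21.7 FPKM), Irak2 (16.5), Tab1 (15.7), Map3k7 (9.84), Irak4 (9.08), Traf6 (4.78), Tirap (3.91) and Irak3 (3.44). Neighbours whose libraries overlapped were Myd88 and Irak2, Irak2 and Tab1, Map3k7 and Irak4, Traf6 and Tirap, and Tirap and Irak3, so their order is not set beyond the spread between libraries. In the hippocampus Irak1 was followed by Tab1 (15.2 FPKM), Map3k7 (9.44), Irak2 (3.79), Myd88 (2.90), Traf6 (1.38), Irak4 (1.27), Tirap (1.22) and Irak3 (0.990). Here Irak2 overlapped Myd88, and Traf6, Irak4, Tirap and Irak3 each overlapped the next. Irak1 had a higher mean than 85.8% of the listed hippocampus genes and Irak3 than 7.71%, so the members spanned most of the range of expression.

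**Figure D1:**
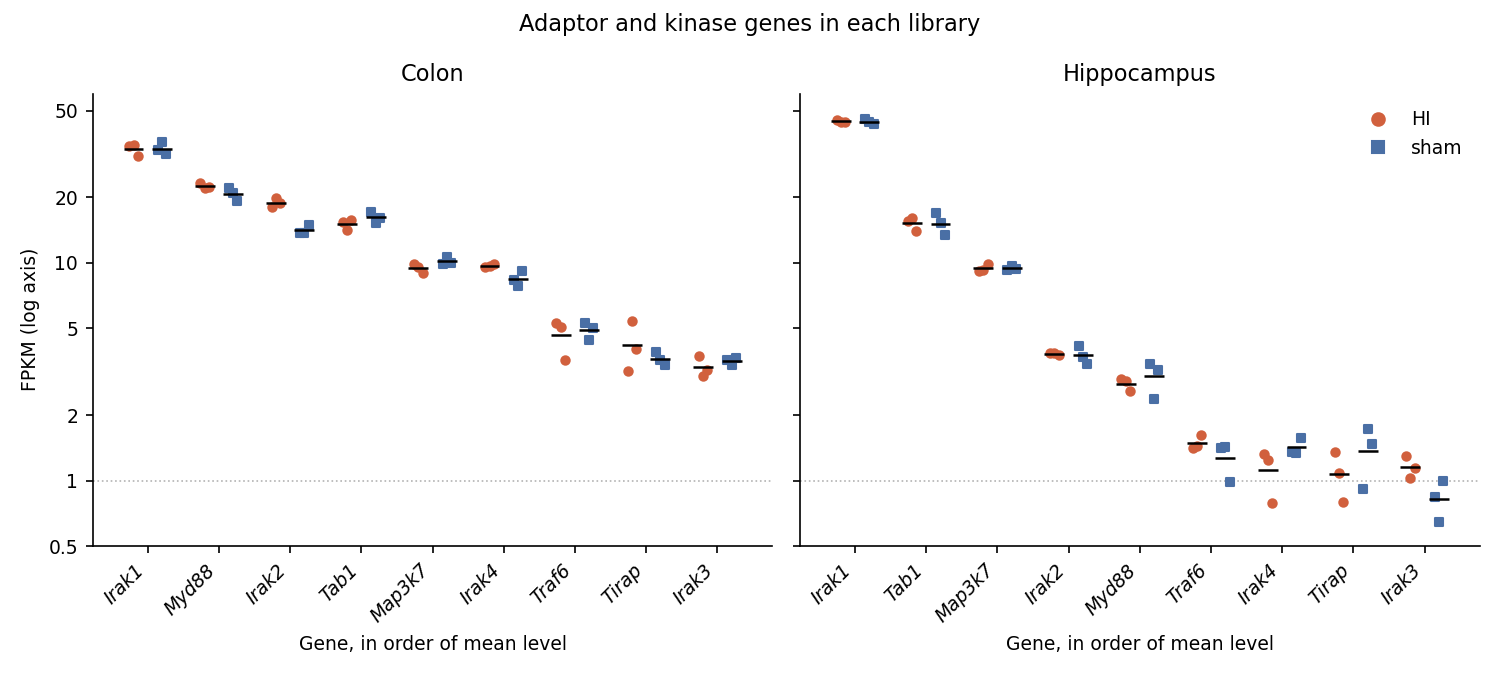
FPKM of the 9 genes on a log axis, 1 point per library, with HI (circles) left of sham (squares) for each gene; black bars are group means and the dotted line marks 1 FPKM. Irak1 is highest in both tissues, and Traf6, Irak4, Tirap and Irak3 lie near 1 FPKM in the hippocampus.

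Set side by side, Tab1 and Map3k7 had close means in the tissues (ratios of 1.03 and 1.04), Irak1 was lower in the colon and the other 6 genes were higher there. The tissues have separate tables and a shared normalisation was not assumed, so these levels are a description with no test. Tab1 averaged 15.7 FPKM over the 6 colon libraries and 15.2 FPKM over the 6 hippocampus libraries, and Map3k7 averaged 9.84 FPKM in the colon and 9.44 FPKM in the hippocampus. Myd88 averaged 21.7 FPKM in the colon and 2.90 FPKM in the hippocampus, a ratio of 7.48, and Irak4 averaged 9.08 FPKM in the colon and 1.27 FPKM in the hippocampus, a ratio of 7.15. For Irak2, Irak3, Traf6 and Tirap the colon mean was 4.35, 3.48, 3.47 and 3.20 times the hippocampus mean, while for Irak1 the ratio was 0.749. In bulk tissue, fewer cells of a type and less RNA per cell cannot be told apart.

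A measure that does not depend on how a table was scaled is each gene's share of the summed FPKM of the 9 genes in a library. Irak1 took between 26.4% and 30.9% of that sum in colon libraries and between 54.4% and 56.2% in hippocampus libraries. The share of Myd88 lay between 17.1% and 19.0% in the colon and between 2.95% and 4.14% in the hippocampus. Tab1 took 11.4% to 14.7% in the colon and 17.2% to 20.1% in the hippocampus. These ranges did not overlap between the tissues. A share also moves with the levels of the other genes in the sum, so it does not give the change of 1 gene. Tab1 took a larger share in the hippocampus although its mean was 15.7 FPKM in the colon and 15.2 FPKM in the hippocampus. Irak2 took 11.7% to 16.1% in the colon and 4.41% to 4.93% in the hippocampus.

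**Figure D2:**
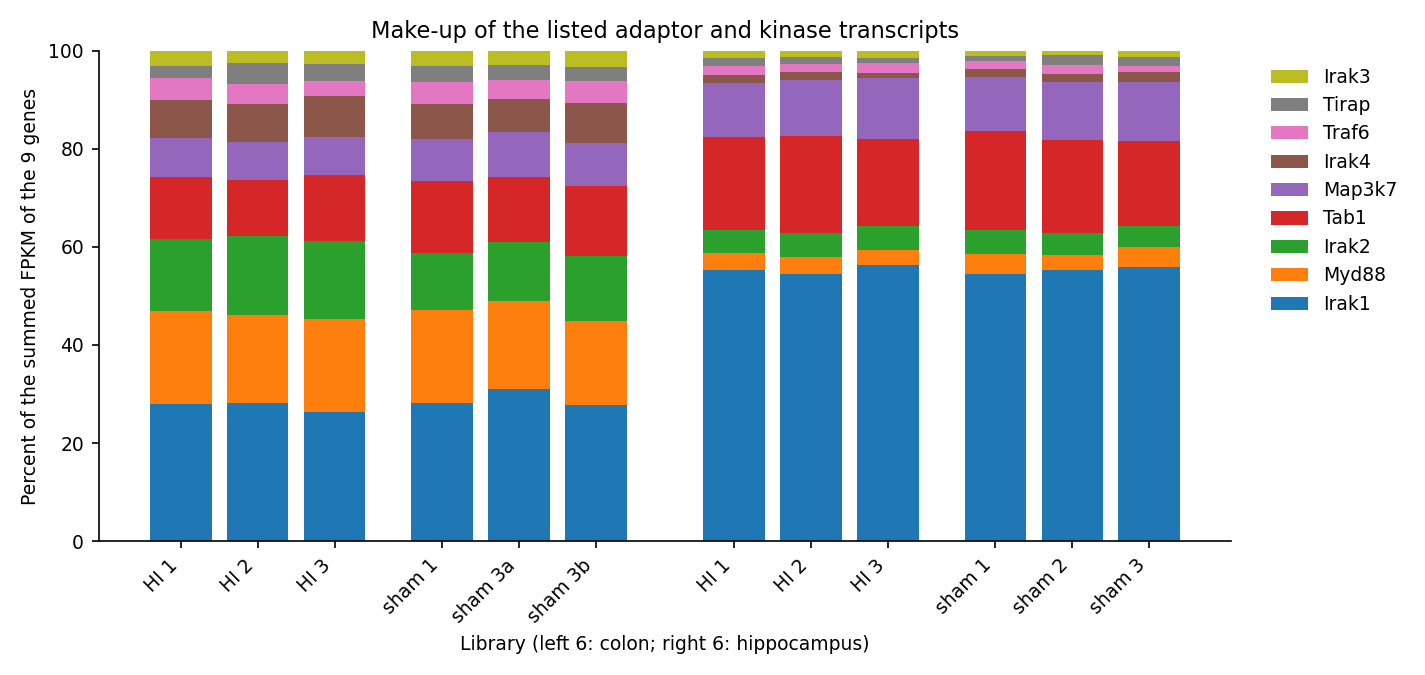
Share of each gene in the summed FPKM of the 9 genes, in percent, 1 bar per library; the left 6 bars are colon and the right 6 hippocampus, each with HI left of sham. Irak1 fills 26.4% to 30.9% of the colon bars and 54.4% to 56.2% of the hippocampus bars, and Myd88 is the second layer from the bottom.

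In the colon, 0 of the 9 genes passed the threshold between HI and sham (limma adjusted p under 0.05 over 13753 genes). Over all genes tested 0.0436% passed. At an unadjusted p under 0.05, which 11.1% of all genes tested reached, there was 1 member, Irak2. The median log2 difference of the 9 was -0.00, against -0.04 over all genes tested, and 4 of the 9 were higher in HI.

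Irak2 codes for a kinase-like partner of IRAK4 that sustains signalling through TRAF6. In the colon it stood at 18.0, 19.9 and 18.8 FPKM in HI 1, 2 and 3, against 13.7, 13.8 and 14.9 FPKM in sham 1, 3a and 3b. Every HI library lay above every sham library. The means were 18.9 FPKM ± 0.971 in HI and 14.1 FPKM ± 0.678 in sham (SD, n = 3 each), a ratio of 1.34. On the log2(FPKM + 1) scale the difference was 0.40 ± 0.08 (SE), with a 95% interval of 0.21 to 0.59 before adjustment. Its p ranked 82 among the 13753 genes, and it did not pass when adjusted over all of them (limma adjusted p = 0.246). The gene lies on chromosome 4 (145594575 to 145651053, + strand, deposited coordinates).

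Irak4, which codes for the first kinase of the complex, stood at 9.53, 9.67 and 9.93 FPKM in colon HI 1, 2 and 3, against 8.36, 7.83 and 9.13 FPKM in sham 1, 3a and 3b. The HI libraries lay above the sham libraries without overlap. The difference of 0.18 ± 0.09 (SE) on the log2 scale did not pass (limma adjusted p = 0.479). Of all genes tested, 15.9% had groups that did not overlap, 5.63% with HI above and 10.3% with HI below sham, beside 2 of the 9 members, both with HI above.

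Myd88, the shared adaptor, stood at 23.3, 22.1 and 22.2 FPKM in colon HI 1, 2 and 3, against 22.1, 21.0 and 19.3 FPKM in sham 1, 3a and 3b. HI 2 and sham 1 were level, so the groups touched. Its log2 difference was 0.11, with a 95% interval of -0.07 to 0.30. Tirap, the bridging adaptor of TLR2 and TLR4, varied most among the HI libraries, at 3.20, 5.39 and 4.01 FPKM in HI 1, 2 and 3, against 3.87, 3.59 and 3.40 FPKM in sham 1, 3a and 3b. Its log2 difference of 0.15 ± 0.16 (SE) was -0.01 without HI 2, so that library alone set its direction.

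The remaining colon members had lower or equal means in HI, with groups that overlapped. Traf6 stood at 5.31, 5.05 and 3.59 FPKM in HI 1, 2 and 3, against 5.31, 4.40 and 5.03 FPKM in sham 1, 3a and 3b, and its log2 difference of -0.08 ± 0.15 (SE) was 0.07 without HI 3. Irak3, the brake, stood at 3.75, 3.03 and 3.22 FPKM in HI 1, 2 and 3, against 3.57, 3.41 and 3.67 FPKM in sham 1, 3a and 3b, a log2 difference of -0.07. Map3k7 averaged 9.49 FPKM ± 0.459 in HI and 10.2 FPKM ± 0.419 in sham, and Tab1 15.1 FPKM ± 0.880 in HI and 16.2 FPKM ± 0.920 in sham (SD, n = 3 each). The 95% intervals reached from -0.29 to 0.10 for Map3k7 and for Tab1 and from -0.19 to 0.19 for Irak1, so changes of either sign up to these bounds were not distinguishable from none. The row of Map3k7 lies on chromosome 9 in the deposited coordinates (114022137 to 114079089), while RefSeq places the gene on chromosome 5 in the assembly GRCr8; the gene is taken here by the symbol the authors gave it.

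**Figure D3:**
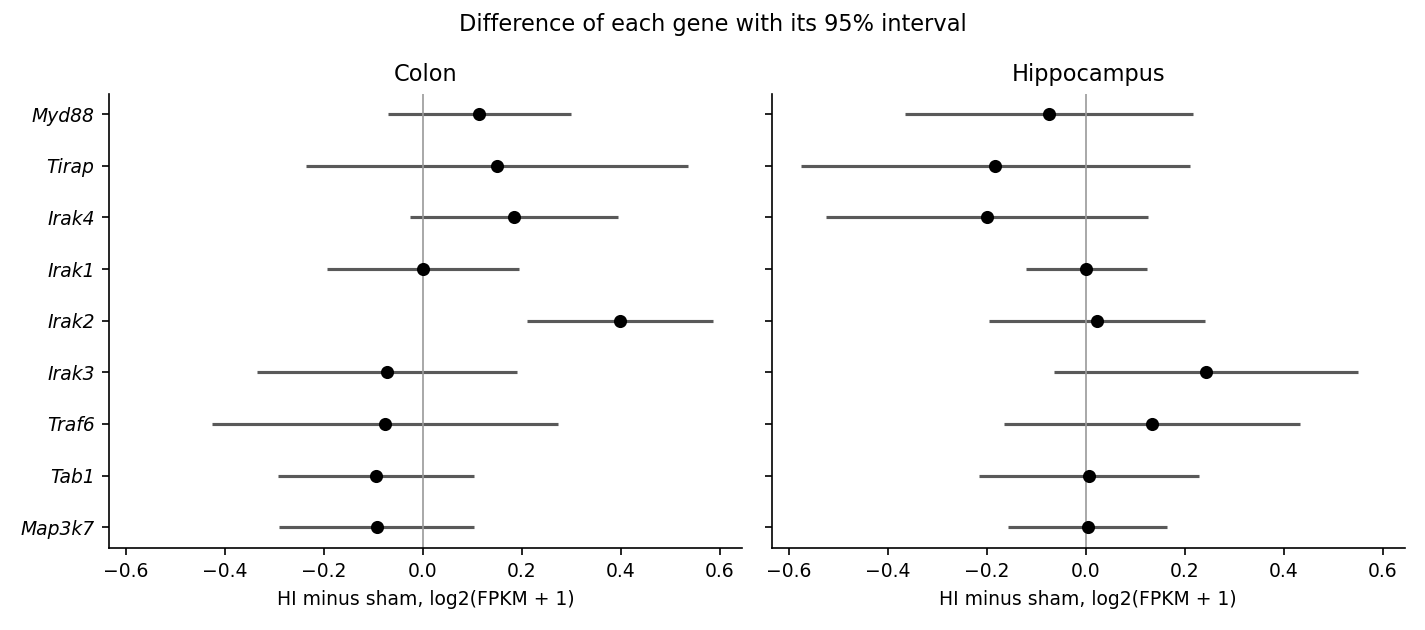
HI minus sham on the log2(FPKM + 1) scale for the 9 genes, ordered from adaptors to Map3k7, with dots for the estimate and lines for its 95% interval before adjustment. Of the 18 intervals, that of Irak2 in the colon (0.21 to 0.59) does not reach 0.

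Hox genes differed among the colon libraries along with the groups. Position along the gut was scored as the average log2(FPKM + 1) over 4 Hox genes of group 13, which mark the hind end, less the average over 24 Hox genes of groups 2 to 9. This score was -0.84, 1.27 and 1.57 in HI 1, 2 and 3, against -2.18, -2.65 and 0.10 in sham 1, 3a and 3b. Within sham, 3b had the highest score and also the highest Irak2 and Irak4 of the 3, but the lowest Myd88 (19.3 FPKM). The difference of Myd88 was 0.11 without the score and 0.21 with it as a covariate. With the score as a covariate, the difference of Irak2 was 0.31 ± 0.11 (SE, limma adjusted p = 0.929), against 0.40 ± 0.08 without it. That of Irak4 was 0.09 ± 0.12 (SE, limma adjusted p = 0.9999), against 0.18 ± 0.09 without it. Of 11 epithelial marker genes 7 were higher in HI, with 0 past the threshold, and their summed level ranged from 5346 to 6793 FPKM in HI and from 5310 to 5622 FPKM in sham. Of 15 macrophage markers 14 had a row, with 7 of the 13 tested higher in HI and 0 past the threshold, and they summed to between 353 and 469 FPKM in HI and between 384 and 475 FPKM in sham, and the 11 leukocyte markers to between 54.1 and 119 FPKM in HI and between 52.7 and 120 FPKM in sham. All 8 smooth muscle markers had higher means in HI, with 0 past the threshold, a median difference of 0.13 and sums from 6001 to 7270 FPKM in HI and from 5439 to 6725 FPKM in sham. Of 9 granulocyte markers 4 had a row; the 3 tested had higher means in HI, with 0 past the threshold, a median difference of 0.58 and sums from 8.41 to 13.7 FPKM in HI and from 5.07 to 10.6 FPKM in sham. The part of tissue make-up in the Irak2 and Irak4 values was not tested beyond the covariate.

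**Figure D4:**
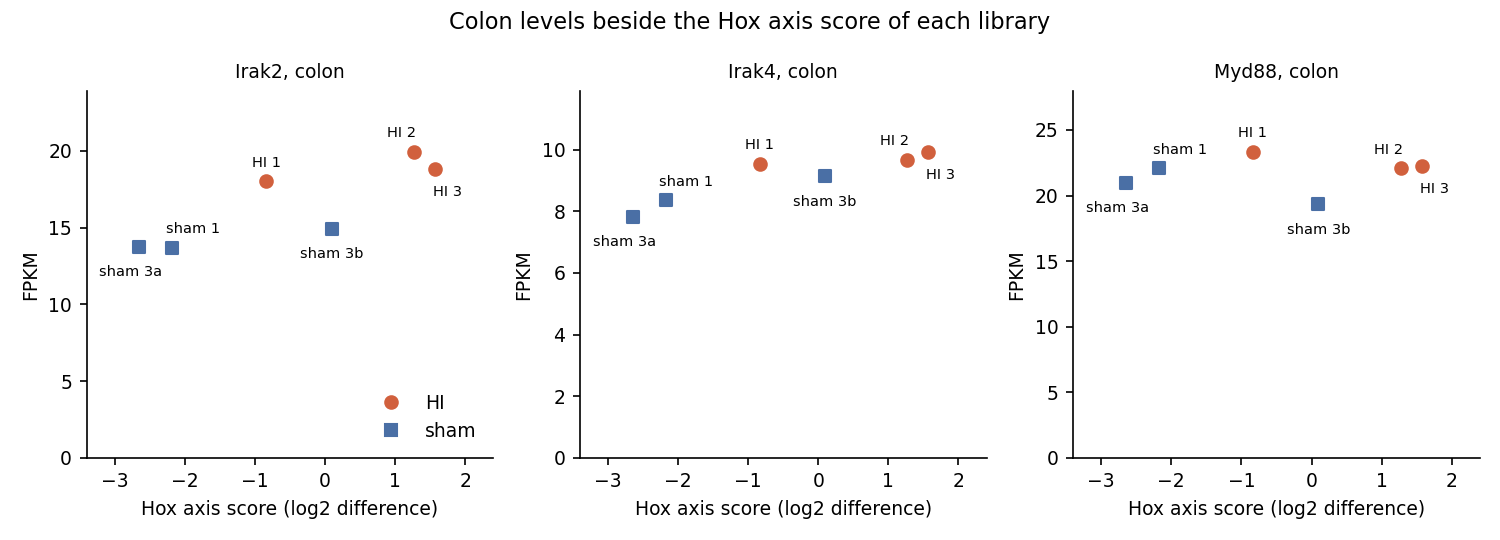
Colon FPKM of Irak2, Irak4 and Myd88 (vertical axes from 0) against the Hox axis score of each library, with HI as circles and sham as squares. Irak2 is at 18.0 FPKM in HI 1, whose score of -0.84 lies below that of sham 3b (0.10), which has 14.9 FPKM.

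In the hippocampus 0 of the 9 genes passed between HI and sham (limma adjusted p under 0.05 over 13181 genes, of which 0.00759% passed), and 0 reached an unadjusted p under 0.05, which 6.62% of all genes tested did. Their median log2 difference was 0.00, as was that of all genes tested. The 4 smallest differences were those of Irak1, Map3k7, Tab1 and Irak2. Irak1 differed by 0.00 with a 95% interval of -0.12 to 0.12, Map3k7 by 0.00 (-0.16 to 0.17), Tab1 by 0.01 (-0.22 to 0.23) and Irak2 by 0.02 (-0.19 to 0.24). Map3k7 stood at 9.14, 9.32 and 9.92 FPKM in HI 1, 2 and 3, against 9.32, 9.63 and 9.33 FPKM in sham 1, 2 and 3. Irak2 stood at 3.84, 3.85 and 3.79 FPKM in HI 1, 2 and 3, inside the sham range of 4.16, 3.70 and 3.42 FPKM in sham 1, 2 and 3.

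Myd88 averaged 2.78 FPKM ± 0.188 in HI and 3.01 FPKM ± 0.556 in sham hippocampus (SD, n = 3 each), with HI libraries inside the sham range. Its log2 difference was -0.07, with a 95% interval of -0.37 to 0.22. Tab1 averaged 15.2 FPKM ± 1.11 in HI and 15.2 FPKM ± 1.79 in sham (SD, n = 3 each).

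The 4 genes near 1 FPKM showed wider differences with wider errors. Irak3 stood at 1.29, 1.03 and 1.15 FPKM in HI 1, 2 and 3, against 0.836, 0.646 and 0.990 FPKM in sham 1, 2 and 3. Every HI library lay above every sham library, and the 3 HI libraries alone reached 1 FPKM, so Irak3 entered the test through the group in which it was higher. The ratio of means was 1.40, and the difference of 0.24 ± 0.13 (SE) on the log2 scale, which understates the change of low genes, did not pass (limma adjusted p = 0.765). Without HI 1 and without the filter on low values it was 0.20 (adjusted p = 0.935). Irak4 stood at 1.32, 1.25 and 0.788 FPKM in HI 1, 2 and 3, against 1.36, 1.34 and 1.56 FPKM in sham 1, 2 and 3. Every HI library lay below every sham library, by a margin of 0.0132 FPKM between HI 1 and sham 2. The log2 difference of -0.20 ± 0.14 (SE) did not pass (limma adjusted p = 0.787), and it was -0.08 without HI 3. Groups that did not overlap were found for 13.2% of all genes tested, 6.4% with HI above and 6.81% with HI below sham. Of the 9 members 2 lacked overlap, Irak3 and Irak4. For Irak3 this followed from how it passed the filter, so it is no result to set beside that share. Traf6 differed by 0.13 ± 0.13 and Tirap by -0.18 ± 0.17 (SE), with libraries that overlapped. Leaving out 1 library gave 0.04 (without sham 3) to 0.18 (without sham 2) for Traf6 and -0.33 (without sham 1) to -0.08 (without sham 2) for Tirap.

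Microglia are the brain cells best known for this relay. Of 15 microglia and macrophage markers 14 had a row, and they summed to between 203 and 211 FPKM in HI and between 198 and 215 FPKM in sham, with 8 of 14 higher in HI and 0 past the threshold. All 9 oligodendrocyte markers had higher means in HI, with 0 past the threshold, a median difference of 0.52 and overlapping sums from 1316 to 2684 FPKM in HI and from 1175 to 2074 FPKM in sham. The 9 choroid plexus markers, of which 3 passed the filter and 0 the threshold, summed to between 18.3 and 4359 FPKM in HI and between 5.27 and 12.1 FPKM in sham. The sums of 2 other lists did not overlap between the groups, with 0 genes past the threshold in either. The 7 smooth muscle markers with a row of 8 summed to between 36.3 and 48.5 FPKM in HI and between 56.4 and 101 FPKM in sham, with 1 of 7 higher in HI and a median difference of -0.55. The 11 neuronal markers summed to between 3210 and 3395 FPKM in HI and between 3397 and 3494 FPKM in sham, with 4 of 11 higher in HI. The part of these cell types in the Irak3 and Irak4 values was not tested for smooth muscle and neurons. With the oligodendrocyte list as a covariate Irak3 differed by 0.15 and Irak4 by -0.21. With the choroid plexus list Irak3 differed by 0.19 and Irak4 by -0.28, and 0 members passed with either. The average log2(FPKM + 1) of the choroid plexus list was 5.05 in HI 1 and at most 1.06 in the other hippocampus libraries. This covariate therefore acts much like leaving out HI 1, which gave -0.27 for Irak4, and is no separate check of a cell type.

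**Figure D5:**
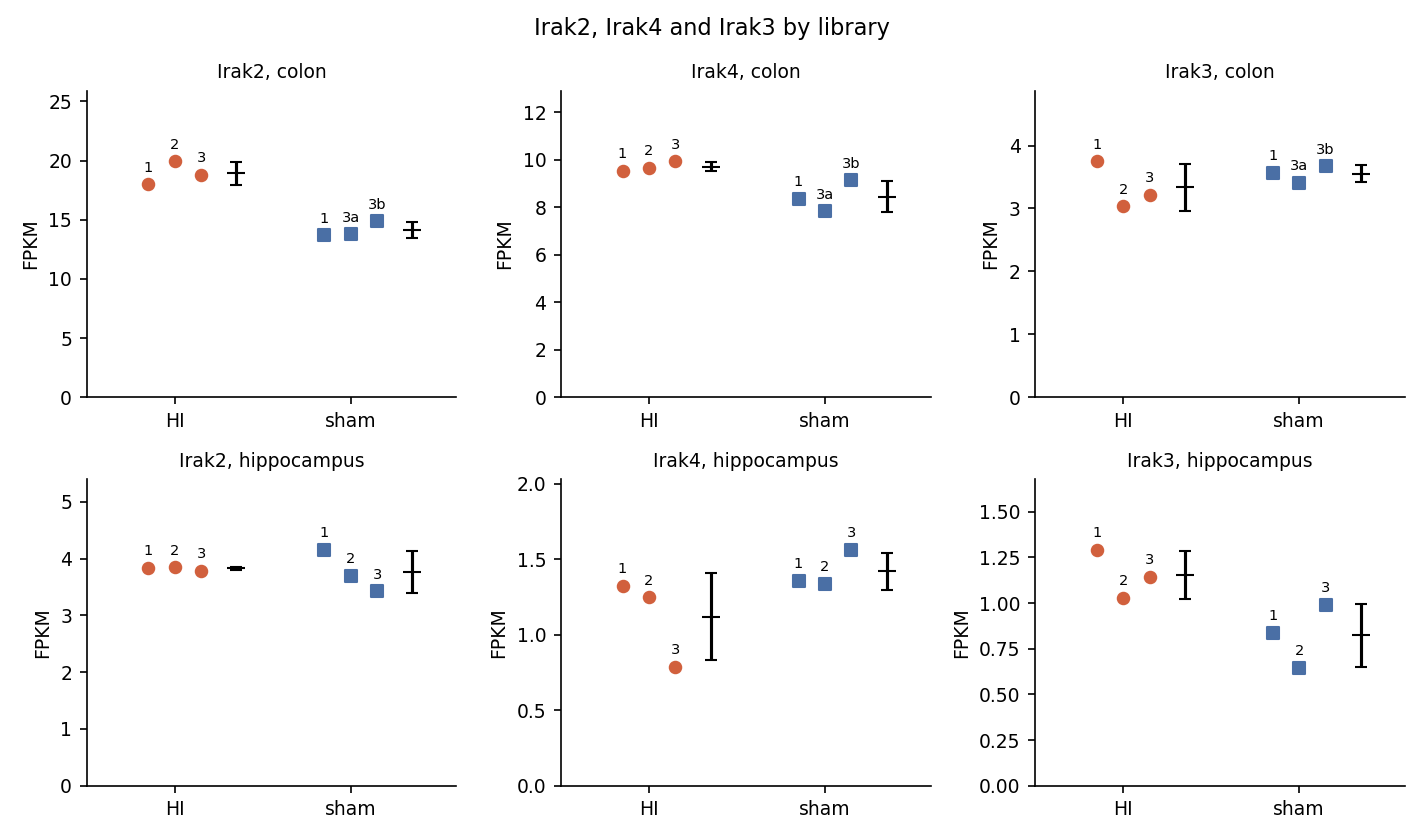
FPKM of Irak2, Irak4 and Irak3 in each library of the colon (upper row) and the hippocampus (lower row), with HI left of sham, library numbers above the points, and mean ± SD (n = 3) beside them; axes start at 0 and differ between panels. Irak2 in the colon and Irak3 in the hippocampus have HI above sham without overlap. Irak3 passed the filter in the hippocampus through its HI libraries alone. Irak4 has HI above sham in the colon and below it in the hippocampus.

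Whether a member's HI difference was unlike in the tissues was tested on the difference itself, as that in the colon minus that in the hippocampus. Of the 9 members 0 passed (limma adjusted p under 0.05 over 13015 genes, of which 0.0154% passed). At an unadjusted p under 0.05, which 9.2% of all genes tested reached, there were 2, Irak2 and Irak4. For Irak2 the difference was 0.38 ± 0.11 (SE; adjusted p = 0.414), from 0.40 in the colon and 0.02 in the hippocampus. For Irak4 it was 0.38 ± 0.16 (SE; adjusted p = 0.507), from 0.18 in the colon and -0.20 in the hippocampus. Genes with HI above sham without overlap in the colon and below it without overlap in the hippocampus made up 0.363% of the 11861 tested in both, and genes without overlap in both and opposite in direction 0.894%. Irak3 differed the other way, by -0.32 ± 0.16 (SE; adjusted p = 0.554), and the other 6 members lay between -0.21 and 0.33. Without colon sham 1 the difference was 0.35 for Irak2 and 0.38 for Irak4, and without hippocampus HI 1, the other library that stood apart in Y chromosome genes, it was 0.38 for Irak2 and 0.45 for Irak4.

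Promoter sequences are given for 3 members: Irak3 and Irak4, whose HI and sham libraries did not overlap in the hippocampus, and Myd88. For Irak3 the lack of overlap followed from how it passed the filter. Myd88 was taken for the largest ratio between the tissues. They are RefSeq windows of the assembly GRCr8, from 250 bases before the annotated start to 50 after it, on the strand of the gene. Of the 10 members 6 matched by symbol; Irak2, Traf6, Tab1 and Ticam1 did not. Capitals mark matches, on either strand, to the κB consensus bound by NF-κB, GGGCGG (the GC box of SP1 factors), TGANTCA (a pattern wider than the AP-1 site) or GAAANNGAAA (the core of interferon response elements); CCAAT and TATAAA were searched too and not matched in these windows, and no matches overlapped.
Irak3, chr7:57598582-57598881, - strand: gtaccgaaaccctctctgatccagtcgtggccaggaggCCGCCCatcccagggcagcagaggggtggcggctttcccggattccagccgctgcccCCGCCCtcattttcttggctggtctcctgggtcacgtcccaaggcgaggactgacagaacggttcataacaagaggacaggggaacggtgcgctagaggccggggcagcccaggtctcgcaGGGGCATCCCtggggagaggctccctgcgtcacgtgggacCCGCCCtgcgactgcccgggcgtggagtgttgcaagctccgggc
Irak4, chr7:127561527-127561826, + strand: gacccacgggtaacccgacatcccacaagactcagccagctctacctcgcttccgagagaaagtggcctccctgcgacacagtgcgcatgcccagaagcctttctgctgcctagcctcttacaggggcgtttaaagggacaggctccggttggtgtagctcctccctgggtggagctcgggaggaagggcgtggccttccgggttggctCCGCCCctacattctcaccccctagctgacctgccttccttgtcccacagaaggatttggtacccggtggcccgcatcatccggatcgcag
Myd88, chr8:127956181-127956480, - strand: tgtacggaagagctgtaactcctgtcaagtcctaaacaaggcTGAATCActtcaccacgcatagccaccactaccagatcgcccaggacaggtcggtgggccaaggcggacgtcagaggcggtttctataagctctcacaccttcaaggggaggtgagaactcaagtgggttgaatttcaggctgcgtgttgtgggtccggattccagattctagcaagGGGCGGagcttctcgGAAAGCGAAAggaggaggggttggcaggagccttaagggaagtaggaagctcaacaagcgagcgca

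The κB consensus was matched in the Irak3 window, its first base 34 bases before the start, and in 4.18% of all 33469 promoter windows. GGGCGG was matched in the windows of Irak3, Irak4, Myd88, Tirap and Map3k7, and in 33.1% of all windows. In Irak4 its only match began 41 bases before the start, on the opposite strand, and in Irak3 it was matched 3 times, each on the opposite strand. The Myd88 window alone of the members matched GAAANNGAAA, 16 bases before the start (3.92% of all windows), and TGANTCA, 208 bases before it (7.33% of all windows). The TGANTCA match reads TGAATCA, which is not the AP-1 site itself. CCAAT and TATAAA, matched in 37.5% and 14.2% of all windows, were matched in none of the members' windows. Irak3 held 21, Irak4 16 and Myd88 14 CG dinucleotides, against a median of 7 over all windows. Of all windows, 77.4% held fewer than Irak3, 69.5% fewer than Irak4 and 66.5% fewer than Myd88. These matches are descriptions of letters and say nothing of binding in these tissues.

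Genes around the relay, in 4 lists, gave 0 calls in either tissue by limma adjusted over all genes tested. Of 23 receptor genes 16 were tested in the colon and 5 in the hippocampus. In the colon, 3 of the 16 had an unadjusted p under 0.05, which 11.1% of all genes reached, all 3 higher in HI, and the list's median was 0.05, against -0.04 over all genes. Il1r1, the interleukin-1 receptor, stood at 5.81, 6.88 and 5.09 FPKM in HI 1, 2 and 3, against 3.33, 4.91 and 4.44 FPKM in sham 1, 3a and 3b (log2 difference 0.41 ± 0.16, SE; adjusted p = 0.413). Tlr4 differed by 1.01 ± 0.40 (SE; adjusted p = 0.428), with 10.9, 15.4 and 14.6 FPKM in HI 1, 2 and 3, against 3.82, 4.36 and 13.5 FPKM in sham 1, 3a and 3b. Its 3 lowest libraries, sham 1, sham 3a and HI 1, also had the 3 lowest Hox scores, and the part of the score in this difference was not tested. In the hippocampus 1 of the 5 had an unadjusted p under 0.05, which 6.62% of all genes tested there reached. This was Il1rap, the accessory chain that lets interleukin-1 receptors recruit MyD88, at 9.92, 8.07 and 9.10 FPKM in HI 1, 2 and 3, against 6.42, 7.28 and 6.69 FPKM in sham 1, 2 and 3 (0.36 ± 0.09, SE; adjusted p = 0.672). Its HI libraries all lay above its sham libraries, as in 6.4% of all hippocampus genes tested, while Tlr2 differed by -0.17 ± 0.13 (SE) with overlap.

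Among 31 other adaptors, ubiquitin enzymes and brakes, 27 were tested in the colon and 25 in the hippocampus. An unadjusted p under 0.05 was reached by 11.1% of all genes tested in the colon and by 6.62% in the hippocampus. In each tissue 1 gene of this list reached it. In the colon this was Trafd1, a TRAF-type zinc finger protein known to restrain Toll-like receptor signalling, at 28.4 FPKM ± 3.19 in HI and 35.5 FPKM ± 2.75 in sham (SD, n = 3 each; log2 difference -0.31, adjusted p = 0.397). Traf7 averaged 50.4 FPKM ± 4.71 in HI and 44.0 FPKM ± 0.469 in sham colon. In the hippocampus it was Ripk1, a kinase of TNF and TRIF signalling, at 4.30, 3.53 and 3.85 FPKM in HI 1, 2 and 3, against 2.87, 3.18 and 2.95 FPKM in sham 1, 2 and 3 (0.29, adjusted p = 0.716). Peli1, an E3 ligase that acts with the IRAKs, averaged 17.7 FPKM ± 1.15 in HI and 15.7 FPKM ± 0.699 in sham hippocampus. In these 4 genes the groups did not overlap. They were named for the 2 smallest p of the list in each tissue, so the lack of overlap is no separate result. Of all genes tested, 15.9% in the colon and 13.2% in the hippocampus had groups that did not overlap.

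An unadjusted p under 0.05 was reached by 11.1% of all genes tested in the colon and by 6.62% in the hippocampus. Of the 23 genes below TAK1, 22 were tested in the colon, with 0 reaching it and a median of 0.02, and 21 in the hippocampus, with 1 reaching it. The hippocampus gene was Chuk, the alpha IκB kinase, at 8.70 FPKM ± 0.758 in HI and 7.17 FPKM ± 0.362 in sham (SD, n = 3 each; 0.25, adjusted p = 0.716), next to Tnip1 at 16.9 FPKM ± 0.996 in HI and 15.5 FPKM ± 0.428 in sham. In the colon the smallest p belonged to the MAP kinase kinases Map2k3 (0.25 ± 0.12, SE) and Map2k4 (0.16 ± 0.09, SE). Of the 27 NF-κB target genes 20 were tested in the colon and 16 of them were higher in HI, with a median of 0.15 against -0.04 over all genes, of which 40.9% were higher. At an unadjusted p under 0.05, which 11.1% of all genes reached, there were 5, 4 of them higher. Nfkb2 averaged 24.9 FPKM ± 0.572 in HI and 20.8 FPKM ± 1.09 in sham without overlap (adjusted p = 0.357), and Birc3 29.7 FPKM ± 6.09 in HI and 19.6 FPKM ± 3.22 in sham with overlap (adjusted p = 0.365; SD, n = 3 each). Birc3 was at 23.3 FPKM in sham 3b, the sham library with the highest Hox score, and at 18.1 and 17.3 FPKM in sham 1 and 3a; the part of the score in the target genes was not tested. In the hippocampus 10 target genes were tested and 5 were higher, with a median of 0.03; Ptgs2, the inducible cyclooxygenase, averaged 13.1 FPKM ± 2.21 in HI and 9.65 FPKM ± 0.946 in sham (0.39, adjusted p = 0.716), and Ier3 differed by 0.19 ± 0.12 (SE).

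The genes whose pattern over the 6 colon libraries was most like that of Irak2, by the root mean square difference of centred log2(FPKM + 1), were AABR07010705.1 (0.0247), Rnd1 (0.0413) and Rab11fip1 (0.0465), where the median over all genes tested was 0.264. Rab11fip1, a partner of the recycling endosome GTPase Rab11, stood at 23.9, 26.7 and 23.5 FPKM in HI 1, 2 and 3, against 19.2, 17.7 and 19.8 FPKM in sham 1, 3a and 3b. Over the 6 hippocampus libraries the genes most like Irak3 were Arhgef3 (0.0234), Arrdc2 (0.0240) and Rbpj (0.0241), with a median of 0.190 over all genes tested. Irak3, the member of smallest p there, lies near 1 FPKM and passed the filter through its HI libraries alone. The pattern these genes were matched to was thus itself selected. Rbpj, the transcription factor of Notch signalling, stood at 9.92, 8.74 and 9.72 FPKM in HI 1, 2 and 3, against 8.07, 6.98 and 8.79 FPKM in sham 1, 2 and 3. These genes were selected for their likeness, so that their libraries follow the order of the member is no separate result.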

How the data were processed

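The 12 RNA-seq libraries fall by tissue and treatment label into 4 groups of 3. Per the labels' protocols, TRIzol RNA was used, with mRNA purification, fragmentation and PCR. The authors deposited FPKM per library for protein-coding genes, in 1 table per tissue; the aligner, quantifier, strand setting, build and annotation: not given in the sources used here. FPKM keep no counts, so depth is unknown and no counting interval is given. No per-sample column was left out (0 unused).

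Values were analysed as log2(FPKM + 1). limma 3.58.1 in R 4.3.3 (eBayes with a mean-variance trend) was run per tissue on genes that reached 1 FPKM in 3 or more of the libraries fitted, with Benjamini-Hochberg adjustment over all genes tested and a threshold of 0.05. The difference between tissues was fitted over all 12 libraries on genes in both tables. That fit treated the libraries as independent and had no term for rats that may have given both tissues. The fits were tested on simulated data. 

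The 10 members, the lists and the tests were chosen with earlier results of these data known. Named besides the members were up to 2 genes of smallest p per list and tissue and the 3 most like the member of smallest p in each tissue. Where a symbol had several identifiers, the one with the highest mean was used, and list genes were also looked up by RefSeq synonyms (GRCr8). Alternatives were another pseudocount, no filter, median-ratio scaling, no trend, leaving out each library, covariates, a replicate block and 1 fit over the 12 libraries. Deviations of same-numbered hippocampus libraries correlated little, so the main fit did not pair them. With 3 libraries per group this check cannot exclude a pairing.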

Additional observations from a re-analysis of the deposited data

Results flagged for a closer look

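Irak4 was singled out because all its HI libraries lay above all sham libraries in the colon and below all of them in the hippocampus. The HI difference in the colon minus that in the hippocampus was 0.38 ± 0.16 on the log2 scale (SE; limma adjusted p = 0.507), so the test of the difference did not pass. Of 11861 genes tested in both tissues, 0.894% lacked overlap in both with opposite directions, 0.363% in the direction of Irak4. Over the 16 alternatives it lay between 0.27 and 0.55, with adjusted p from 0.293 to 0.834. In the hippocampus the groups are separated by 0.0132 FPKM, in a gene near 1 FPKM.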

How the results depend on the processing

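The number of members called was 0 in each tissue and for the difference between the tissues, and it stayed 0 under every alternative run. Irak2 in the colon kept its direction under all 12 alternatives, from 0.31 to 0.44, with adjusted p from 0.0674 (1 fit over the 12 libraries) to 0.933 (without sham 3a). Of 384 member values under alternatives, 358 kept their direction and 26 turned it. With median-ratio scaling Irak1 was 0.040 in the colon and 0.038 for the difference between the tissues, and with the Hox score as a covariate Irak1 was 0.101 and Traf6 0.015. In the hippocampus the choroid plexus covariate gave -0.011 for Irak1 and -0.0070 for Tab1. Leaving out HI 1 with no filter, an alternative chosen after seeing the data, gave -0.010 for Irak1 and -0.011 for Tab1. The choroid plexus list was high in HI 1 alone, so these settings are not separate checks. With 1 library left out the colon values ranged from -0.041 to 0.052 for Irak1, -0.164 to 0.066 for Traf6 and -0.0098 to 0.293 for Tirap. The hippocampus ranges were -0.018 to 0.022 for Irak1, -0.028 to 0.083 for Irak2, -0.027 to 0.026 for Map3k7, -0.193 to 0.0030 for Myd88 and -0.076 to 0.085 for Tab1, and that of Irak1 for the difference between the tissues was -0.042 to 0.051. With the filter kept, Irak3 in the hippocampus was under it and gave no value whenever an HI library was left out.

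Counts over all genes moved more. In the colon 6 genes were called, against 3 without the trend, 1 with the Hox score, 24 in 1 fit over the 12 libraries and 2 (without HI 3) to 38 (without sham 3b) with 1 library left out. In the hippocampus 1 gene was called, against 0 with a pseudocount of 0.1, without the trend, with the oligodendrocyte covariate and with the replicate block, 3 with the choroid plexus covariate, 4 without HI 1 and the filter, and 0 to 5 with 1 library left out. For the difference between the tissues 2 were called, against 1 with a pseudocount of 0.1, with median-ratio scaling and without the trend, and 1 to 25 with 1 library left out. The cause of these shifts was not tested.

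Replicate numbers were shared by hippocampus HI and sham libraries, but deviations of same-numbered libraries correlated at -0.05, 0.08 and -0.03 over 13181 genes, so the replicate block, with 0 members called, is given here alone. In the colon no paired analysis was possible because 2 sham columns carry the same number. Depth is unknown, and genes near 1 FPKM rest on the fewest reads.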
